A study of Mus musculus with 4 samples.

Results

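The genes described here are 10 metalloproteases and metalloprotease inhibitors of B16F10 cells: Adam9, Adam10, Adam15, Adam17, Mmp2, Mmp14, Mmp15, Timp1, Timp2 and Timp3. They are 10 of the 24421 gene symbols in the count matrix and were matched to it by symbol. The set was chosen by family membership and partly because the counts of Adam9 were already known to be very low in the shLmna libraries. The counts of Adam9 in this contrast are therefore given as a description, without a test.

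B16F10 is a mouse melanoma line of C57BL/6 origin, and 4 libraries of transduced cells were compared, 2 per group. The shControl cells were transduced by lentivirus with a control vector that the study lists as empty. The shLmna cells were transduced by lentivirus with a short hairpin RNA against exon 8 of Lmna, which encodes the A-type lamins of the nuclear lamina. Both groups were selected with puromycin, expanded and grown in medium with fetal bovine serum. Since the control vector carried no hairpin, the knockdown, the mere presence of a hairpin and any other way in which the transduced lines differed cannot be told apart. RNA was profiled by bulk MARS-seq, which primes at the poly(A) tail and counts the 3′ ends of transcripts.

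Proteases of the ADAM family are membrane-anchored enzymes that cut the extracellular parts of other membrane proteins, a process called shedding. Matrix metalloproteases (MMPs) digest collagens and other matrix proteins, and the membrane-type MMPs do so at the cell surface. Tissue inhibitors of metalloproteases (TIMPs) are small secreted proteins that block the active site of MMPs, and some TIMPs also block some ADAMs. TIMP2 also helps MMP14 to activate the pro-form of MMP2.

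All 7 protease genes carry the code for the same zinc-binding element, in which 3 histidines hold the catalytic zinc and a glutamate takes part in the cut. The coding stretches of that element are shown because they are what the ADAM and MMP members have in common in sequence. Each runs over 33 bases, 5′ to 3′ on the coding strand of the GRCm38 genome, with the codons of the 3 histidines and of the glutamate in capitals.
Adam9: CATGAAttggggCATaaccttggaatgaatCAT
Adam10: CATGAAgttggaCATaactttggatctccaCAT
Adam15: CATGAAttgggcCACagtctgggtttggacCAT
Adam17: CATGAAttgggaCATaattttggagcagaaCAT
Mmp2: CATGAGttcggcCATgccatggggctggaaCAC
Mmp14: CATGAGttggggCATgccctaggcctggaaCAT
Mmp15: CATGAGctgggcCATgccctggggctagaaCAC

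The stretch of Adam9 lies at chr8:24990326-24990358 on the minus strand, in exon 11 of 22. That of Adam10 is joined from exons 9 and 10 of 16, between the positions chr9:70754296-70761585 on the plus strand. The stretch of Adam15 lies at chr3:89344780-89344812 on the minus strand in exon 11 of 23, and that of Adam17 at chr12:21336732-21336764 on the minus strand in exon 11 of 19. The MMP stretches are all on the plus strand, at chr8:92839279-92839311 for Mmp2 (exon 8 of 13), chr14:54437627-54437659 for Mmp14 (exon 5 of 10) and chr8:95368585-95368617 for Mmp15 (exon 5 of 10). Identity between pairs ranged from 18 to 29 of 33 bases. The 3 MMPs shared 27 to 29 bases with each other, whereas Adam9 shared 25 with Adam17, 24 with Adam15 and 23 with Adam10. With the MMPs, Adam9 shared 25 bases for Mmp14, 21 for Mmp2 and 21 for Mmp15. These stretches lie upstream of the counted 3′ ends and played no part in the counts.

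Library totals ranged from 2494880 to 3808843 counts, and 11562 to 12395 genes had at least 1 count. Lmna had 2826 and 2684 counts in shControl 1 and 2 and 331 and 480 counts in shLmna 1 and 2, in the direction of the labels (log2 fold change −2.61). Levels are given below as CPM, the counts per 1000000 counts of a library with its size adjusted by TMM, and a group is summarised by the mean ± SD of its 2 libraries. The summed level of 7 melanocyte markers was 20117 and 20891 CPM in shControl and 21156 and 24602 CPM in shLmna. Within that sum the markers moved apart, with 1 of 6 tested lower and 2 higher at an adjusted p of 0.05. Of all tested genes, 9.74% were lower and 5.48% higher at that limit. Sox10, a transcription factor of the melanocyte lineage, fell (log2 fold change −0.89, SE 0.130, edgeR adjusted p = 0.00161), and the melanosome genes Mlana (0.51, SE 0.0910, adjusted p = 0.0051) and Pmel (0.41, SE 0.104, adjusted p = 0.0258) rose. Mlana did not pass without shLmna 2 (edgeR adjusted p = 0.0783), and Pmel did not without shControl 2 (0.107), shLmna 1 (0.105) or shLmna 2 (0.199), on the recovered counts (0.0590) or with an offset for GC (0.0508). Mitf was lower in both shLmna libraries, at 99.7 and 109 CPM against 137 and 133 CPM in shControl. It did not pass (log2 fold change −0.37, SE 0.125, edgeR adjusted p = 0.0804), and the groups overlapped for Dct and Tyrp1. Tyr, the gene of tyrosinase, named after its values were seen, had only 1 count in each shControl library, against 3 and 7 in shLmna. Among the markers of other cell types, 6 fibroblast genes summed to 7.12 and 7.50 CPM in shControl and to 2.37 and 4.90 CPM in shLmna, with 2 of the 6 without a count. Of 5 leukocyte markers only Cd68 was detected, at 14.5 and 16.4 CPM in shControl and 10.7 and 12.0 CPM in shLmna, and 4 endothelial and 4 keratinocyte genes summed to at most 1.34 CPM in any library. The part of these marker levels in the results was not tested. In bulk samples fewer cells expressing a gene and less RNA per cell cannot be told apart.

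In the shControl cells Timp2 and Mmp14 had the highest levels of the 10 genes. Timp2 stood at 256.4 ± 23.6 CPM and Mmp14 at 254.8 ± 23.5 CPM, and the values of this pair overlapped. Adam15, Adam9, Adam17, Timp1, Adam10, Mmp2, Timp3 and Mmp15 followed, each above the next in both libraries, from 76.4 ± 5.83 CPM for Adam15 down to 1.56 CPM for Mmp15. In the shLmna cells the order began with Mmp14 and then Timp2, without overlap between them. Adam9 was the fourth of the 10 in shControl and the ninth in shLmna, where only Mmp15 was lower. Adam15 and Adam17 overlapped with each other in shLmna, and Timp3 overlapped with both Mmp2 and Adam10, whereas both Mmp2 values were above both Adam10 values. The counted window holds the last 1000 transcript bases for 9 members and 883 for Timp1, so these levels compare 3′ tags and not whole transcripts.

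**Figure D1:**
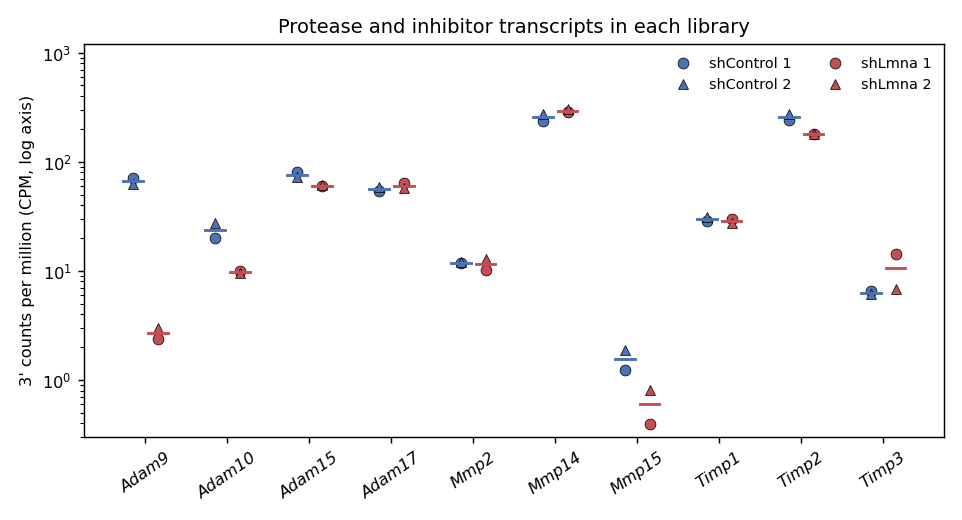
Level of each member in CPM (log axis) in the 4 libraries, with a point per library and the group means marked. Adam9 lies between 62.1 and 70.3 CPM in shControl and at 2.37 and 2.997 CPM in shLmna, while Adam17, Mmp2 and Timp1 overlap between the groups.

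Among the ADAM genes, Adam9 was almost absent from the shLmna libraries, Adam10 fell, and Adam15 and Adam17 did not pass the test. ADAM9 is a widely expressed sheddase that also binds integrins through its disintegrin domain. Adam9 had 227 and 232 counts in shControl 1 and 2, and 6 and 11 counts in shLmna 1 and 2. Both shLmna libraries lay far below both shControl libraries, and the counts were above the floor of 3 counts in each library. The level was 66.2 ± 5.80 CPM in shControl and 2.69 ± 0.441 CPM in shLmna, which is 23.9-fold lower by the fitted log2 fold change of −4.58. By that value 99 of the 9150 tested genes had a lower fold change than Adam9.

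ADAM10 is the main α-secretase of the amyloid precursor protein and makes the first membrane-proximal cut of Notch receptors. Adam10 had 65 and 103 counts in shControl and 25 and 35 counts in shLmna, or 20.1 and 27.6 CPM against 9.89 and 9.54 CPM. Both shLmna values were below both shControl values, which differed more from each other than the shLmna values did. The mean level fell from 23.9 ± 5.26 to 9.71 ± 0.249 CPM, and the fitted log2 fold change was −1.30 (SE 0.261, 95% interval −1.88 to −0.72), with an adjusted p of 0.00929 in edgeR's quasi-likelihood test. Adam10 did not pass the test with DESeq2 (adjusted p = 0.0672) or, in edgeR, with an offset for base composition (log2 fold change −0.44, adjusted p = 0.244). Nor did it pass without shLmna 1 (log2 fold change −1.32) or without shLmna 2 (−1.26). The adjusted p ranged from 6.87e-05 to 0.244 over the 12 alternatives, and the log2 fold change was negative in all of them.

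ADAM15 is a membrane protease whose disintegrin domain can bind integrins. Adam15 (chr3:89338542-89349996, minus strand) was at 80.5 and 72.3 CPM in shControl and at 60.1 and 60.8 CPM in shLmna. The groups did not overlap, but the log2 fold change of −0.34 (SE 0.142, 95% interval −0.65 to −0.02) did not pass after adjustment (edgeR, adjusted p = 0.144). ADAM17 releases tumour necrosis factor and several ligands of the epidermal growth factor receptor from the cell surface. Adam17 (chr12:21323509-21373632, minus strand) was at 54.5 and 59.2 CPM in shControl and at 63.7 and 56.9 CPM in shLmna, with overlapping groups. Its log2 fold change was 0.08 (SE 0.149, 95% interval −0.25 to 0.41, adjusted p = 0.770). Without stated strand use in the counting, its reads cannot be told from those of Iah1, of which an exon overlaps the counted end of Adam17 on the opposite strand.

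The makeup of the ADAM counts can be read within each library, without any scaling between libraries. Of the 728 and 826 ADAM counts in shControl 1 and 2, Adam9 took 31.2% (95% Wilson interval 27.9 to 34.6) and 28.1% (25.1 to 31.2). Of the 344 and 478 ADAM counts in shLmna 1 and 2, it took 1.74% (0.802 to 3.75) and 2.30% (1.29 to 4.07). These intervals cover counting error only. Adam17 took 24.2% and 26.8% in shControl and 46.8% and 43.7% in shLmna, and Adam15 took 35.7% and 32.7% against 44.2% and 46.7%. These are shares of a total that held few Adam9 counts in shLmna, and neither Adam15 nor Adam17 passed the test as higher in CPM. Counts of Adam10 per count of Adam17 came to 0.369 and 0.466 in shControl against 0.155 and 0.167 in shLmna. Adam15 and Adam9 were the largest contributors in both shControl libraries, and Adam15 and Adam17 in both shLmna libraries.

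**Figure D2:**
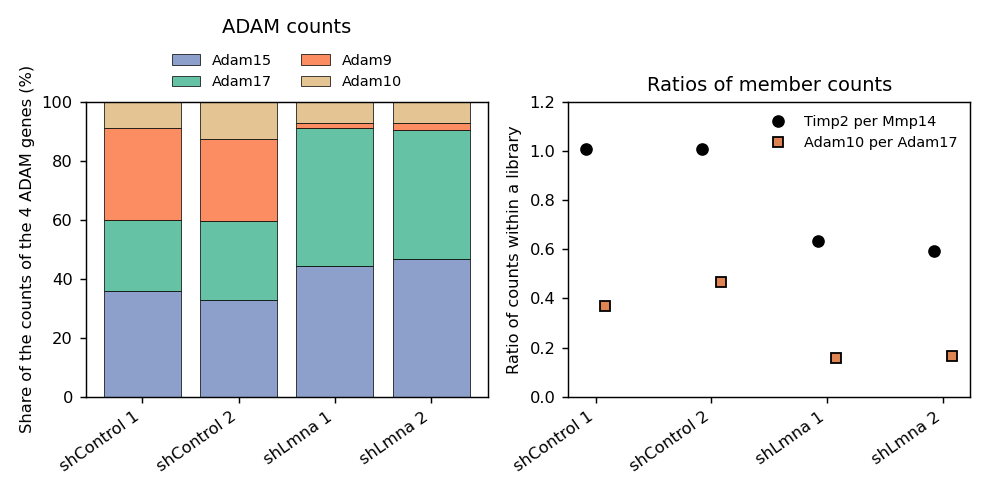
Left, share (%) of the counts of the 4 ADAM genes that each gene takes in each library; right, ratios of counts within a library (Timp2 per Mmp14 and Adam10 per Adam17). The Adam9 share is 31.2% and 28.1% in shControl against 1.74% and 2.30% in shLmna, and both ratios are lower in both shLmna libraries.

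Neither of the 2 tested MMP genes, Mmp14 and Mmp2, passed the test in edgeR at an adjusted or an unadjusted p of 0.05, nor with DESeq2. MMP14, or MT1-MMP, is a membrane-anchored collagenase and the main activator of pro-MMP2. Mmp14 (chr14:54431612-54445364, plus strand) was at 238 and 271 CPM in shControl and at 284 and 302 CPM in shLmna. The shLmna values were both higher, and the log2 fold change was 0.20 (SE 0.126, 95% interval −0.08 to 0.48, edgeR adjusted p = 0.321). MMP2 is gelatinase A, which cuts denatured collagen and type IV collagen of basement membranes. Mmp2 (chr8:92827291-92853420, plus strand) was at 11.8 and 12.0 CPM in shControl and at 10.3 and 12.8 CPM in shLmna, with the shControl values lying between those of shLmna. Its log2 fold change of −0.03 had a 95% interval from −0.63 to 0.56 (SE 0.266, edgeR adjusted p = 0.956). Changes inside that interval cannot be set aside with 2 libraries per group, and the interval is not a limit of detection. MMP15, or MT2-MMP, is another membrane-type enzyme. Mmp15 (chr8:95352268-95375080, plus strand) had 4 and 7 counts in shControl and 1 and 3 counts in shLmna, and the filter on low counts left it untested. Neither shLmna count was above the floor of 3 counts. The ratio of its summed counts, shLmna over shControl, was 0.409 with an exact 95% counting interval from 0.0949 to 1.38.

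Of the 3 inhibitors, Timp2 fell and Timp1 and Timp3 did not pass the test. Timp2 (chr11:118301069-118355740, minus strand) had 774 and 1020 counts in shControl and 455 and 658 counts in shLmna, or 239.7 and 273 CPM against 180.0 and 179 CPM. The shLmna libraries were close to each other and both below shControl. The mean level fell by 29.9%, and the fitted log2 fold change was −0.51 (SE 0.124, 95% interval −0.79 to −0.24, edgeR adjusted p = 0.0217), which is under the fold limit of the calls. Without shLmna 1 the adjusted p was 0.144 and without shLmna 2 it was 0.167, and over the 12 alternatives it ranged from 0.00137 to 0.167.

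TIMP1 is a secreted inhibitor that acts weakly on membrane-type MMPs. Timp1 (chrX:20870166-20874735, plus strand) was at 28.5 and 31.3 CPM in shControl and at 29.7 and 27.2 CPM in shLmna, with overlapping groups and a log2 fold change of −0.08 (SE 0.196, 95% interval −0.51 to 0.36, adjusted p = 0.835). TIMP3 is bound to the extracellular matrix and is the TIMP that inhibits ADAM17. Timp3 (chr10:86300372-86349506, plus strand) had 21 and 23 counts in shControl and 36 and 25 counts in shLmna, or 6.50 and 6.16 CPM against 14.2 and 6.81 CPM. Both shLmna values were higher, shLmna 1 by far the more and shLmna 2 by less than 1 CPM. The log2 fold change was 0.69 (SE 0.394, 95% interval −0.19 to 1.57, edgeR adjusted p = 0.281), and it was 0.11 without shLmna 1 and 1.18 without shLmna 2. An exon of Syn3 on the opposite strand overlaps the counted end of Timp3, with the same limit as for Adam17.

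Timp2 and Mmp14 were counted about equally in the shControl libraries and not in the shLmna libraries. Counts of Timp2 per count of Mmp14 were 1.01 in both shControl libraries and 0.633 and 0.594 in shLmna 1 and 2. Counts of Timp2 per count of Mmp2 came to 20.4 and 22.7 in shControl against 17.5 and 14.0 in shLmna, and those of Timp1 per count of Timp2 were 0.119 and 0.115 against 0.165 and 0.152. Each of these ratios holds Timp2, and in each the groups did not overlap. They did not overlap either for Mmp2 per Mmp14 (0.0494 and 0.0444 against 0.0362 and 0.0424), where neither gene passed the test. In CPM the groups did not overlap for 60.1% of all tested genes. These differences were not tested.

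**Figure D3:**
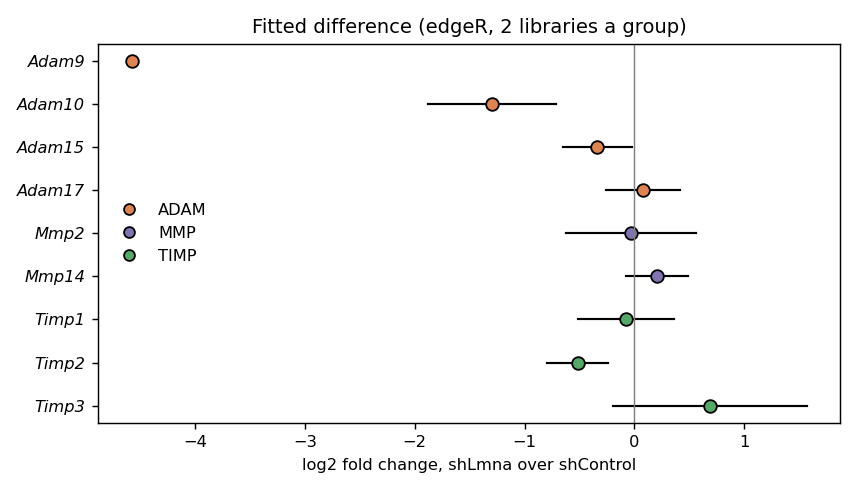
Log2 fold change, shLmna over shControl, of the 9 members that passed the filter, with 95% intervals of the edgeR fit as lines for all but Adam9, which is a description. The intervals of Adam10, Adam15 and Timp2 lie below 0, and Adam15 did not pass after adjustment for multiple testing (adjusted p = 0.144), which the intervals do not include.

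Read against the whole table, the counts of members were as follows. With Adam9 set aside, 2 of the 8 tested members, Adam10 and Timp2, had an adjusted p under 0.05, both lower in shLmna, where 9.74% of all tested genes were lower and 5.48% higher at that limit. Adam10 was the 1 of 8 that also passed the limits on fold change and mean count, with 5.88% of all tested genes lower and 1.76% higher past all 3. The groups did not overlap for 5 of the 8, against 60.1% of all tested genes. Nothing is read from these shares, because the set was selected on the same contrast.

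**Figure D4:**
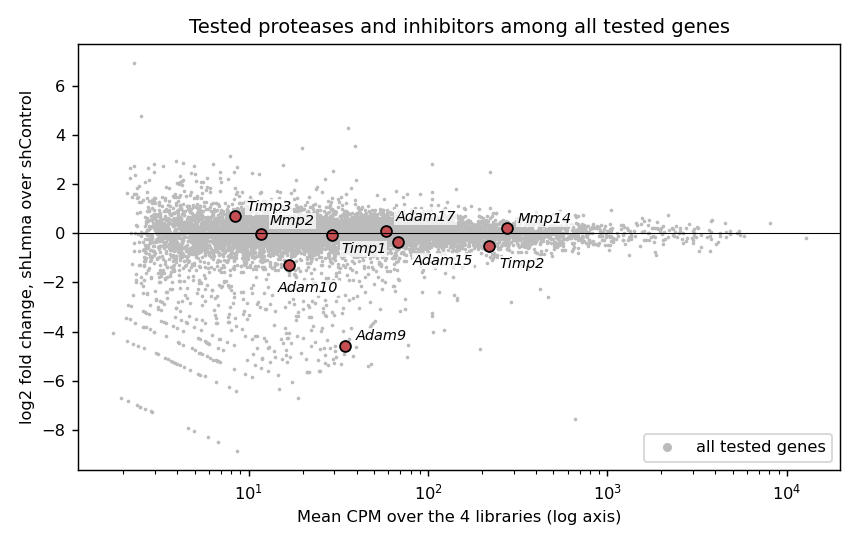
Log2 fold change, shLmna over shControl, against mean CPM over the 4 libraries (log axis), with all 9150 tested genes in grey and the 9 tested members labelled. Adam9 lies at −4.58, below the main cloud, Adam10 at −1.30, and the other members between −0.51 and 0.69.

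The members differed in the base composition of their counted 3′ ends, and fold changes over all tested genes varied with it. Adam9 (chr8:24949611-25016927, minus strand) had 32.5% GC in the last 1000 bases of its transcript, all of them after the stop codon, and Adam10 (chr9:70678997-70780229, plus strand) had 34.7%. The other members ranged from 39.7% for Adam17 to 60.4% for Adam15, around the median of 46.9% for tested genes. Of the 319 tested genes at or under 34% GC, 46.7% were called lower and 3.45% higher, with a median log2 fold change of −1.32. Of the 3358 genes above 50% GC, 1.70% were called lower and 0.417% higher. Among the 148 tested genes within 1 point of Adam9 in GC, 43.2% were called lower and 22 had a lower log2 fold change than Adam9. Among the 317 within 1 point of Adam10, 31.9% were called lower. With an offset for GC the log2 fold change of Adam9 was −3.26 and that of Adam10 was −0.44. The part of base composition in the levels of Adam9 and Adam10 beyond these values was not tested.

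**Figure D5:**
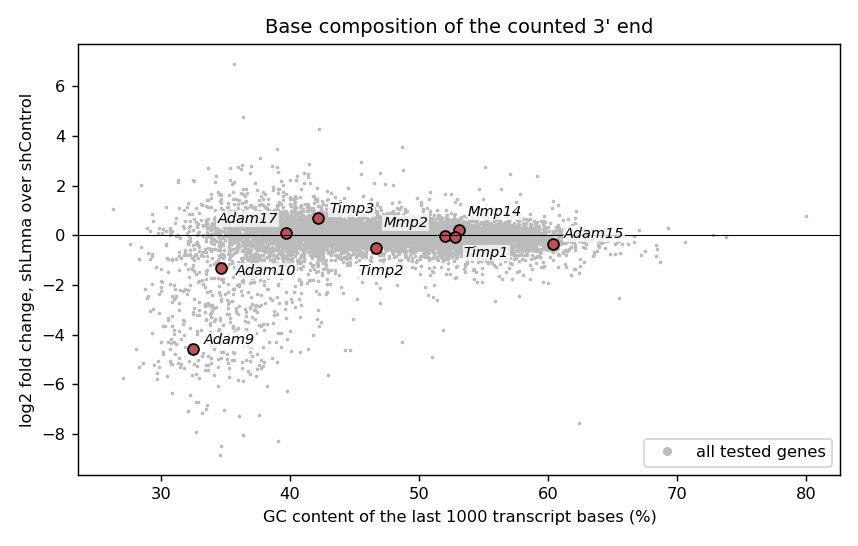
Log2 fold change, shLmna over shControl, against the GC content (%) of the last 1000 transcript bases, with tested genes in grey and members labelled. Adam9 at 32.5% and Adam10 at 34.7% GC lie where calls were frequent. Called lower were 149 of 319 genes (46.7%) at or under 34% GC and 272 of 2256 (12.1%) from there to 42%. From 42% to 50% it was 57 of 3167 (1.80%), and above 50% it was 57 of 3358 (1.70%).

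The counted end of Adam9 shared none of its 31-base words with other genes, and that of Adam10 shared 0.103% of them. Each of these 2 genes had a single 3′ end in RefSeq, so a transcript ending outside that window would not have been counted. Tm2d2 begins 171 bases from Adam9 on the opposite strand. It stood at 114.9 and 116.2 CPM in shControl and at 128.1 and 105.7 CPM in shLmna, and the groups overlapped (log2 fold change 0.01, edgeR adjusted p = 0.970). Within 1 Mb of Adam9, a distance chosen after the values were seen, 9 genes were tested. Of these 9 genes, 0 passed an adjusted p of 0.05 in edgeR or in DESeq2. In edgeR 9.74% of all tested genes were lower and 5.48% higher at that limit. Among the 9, 2 had an unadjusted edgeR p under 0.05, and log2 fold changes ran from −1.18 to 1.003. Within 1 Mb of Adam10, 2 of 7 tested genes passed, both lower, where 9.74% of all tested genes were lower. These were Rnf111, which encodes a ubiquitin ligase (8.36 and 13.1 CPM against 0 and 0.545 CPM), and Gtf2a2, which encodes a subunit of a general transcription factor (210.9 and 216 CPM against 146 and 157 CPM).

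The tested genes whose levels over the 4 libraries were nearest to those of Adam9 were Cnot6, Zfp36l1, Yy1, Tex30 and Clk1. Likeness was measured as the Euclidean distance in log2 CPM, which ran from 0.465 for Cnot6 to 0.873 for Clk1. Cnot6, a deadenylase subunit of the CCR4-NOT complex, had 232 and 282 counts in shControl against 6 and 8 in shLmna. Zfp36l1, which binds AU-rich elements of mRNAs, had 200 and 206 against 6 and 7, and Yy1, a zinc-finger transcription factor, had 182 and 307 against 8 and 14. The GC content of their counted ends was 32.9% for Cnot6, 31.1% for Zfp36l1, 48.7% for Yy1, 35.6% for Tex30 and 36.9% for Clk1. These genes were picked for their likeness, so their fold changes are not a separate result.

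Relatives of the members were mostly undetected or did not pass the test. Of 30 other ADAM genes 20 had no count, 8 were under the filter and 2 were tested, and neither passed. Of 19 ADAMTS genes, secreted relatives that cut matrix proteins, 5 were tested and 1 fell, where 9.74% of all tested genes were lower. This was Adamts14, a procollagen N-proteinase, counted 86 and 99 times in shControl against 35 and 41 times in shLmna (log2 fold change −1.10, SE 0.233, edgeR adjusted p = 0.0117). It did not pass with DESeq2 (adjusted p = 0.105) or without shLmna 2 (0.117). The median log2 fold change of the tested ADAMTS genes was −0.54, against −0.00107 over all tested genes. None of 20 other MMP genes was tested, since 14 had no count and 6 were under the filter. Of 7 other metalloprotease inhibitors only Reck was tested, and it did not pass (log2 fold change −0.21). Neither of the 2 tested genes of the plasminogen activator system passed (median −0.42). In the lists without a gene past the adjusted limit, here and among the partners, 0 tested genes had an unadjusted p under 0.05 and 0 passed with DESeq2.

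Proteins that process, carry or assist these proteases were mostly measured. None of 4 tested proprotein convertases, some of which remove the inhibitory pro-domains of ADAMs and membrane-type MMPs, passed (median log2 fold change −0.10). Among 7 tested partners of ADAM10 and ADAM17, 1 fell and 0 rose (median −0.16), against 9.74% lower and 5.48% higher of all tested genes. This was Tspan17, a tetraspanin that guides ADAM10 to the cell surface, which had 121 and 146 counts in shControl against 59 and 84 in shLmna (log2 fold change −0.73, SE 0.190, edgeR adjusted p = 0.0291). Tspan17 did not pass with DESeq2 (adjusted p = 0.225), without shLmna 1 (0.142) or without shLmna 2 (0.177). None of 7 tested partners of MMP14 passed (median 0.11). Among 8 tested genes of γ-secretase and BACE proteases, which cut substrates after or instead of ADAMs, 1 rose and 0 fell (median 0.02), beside the same shares of all tested genes. Psen2, a catalytic subunit of γ-secretase, rose from 211.9 ± 3.18 to 289.8 ± 9.11 CPM (log2 fold change 0.45, SE 0.118, edgeR adjusted p = 0.0299). It did not pass without shLmna 1 (adjusted p = 0.189), without shLmna 2 (0.136) or with the offset for GC (0.0683).

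Among genes of membrane proteins that are known to be shed, 16 of 37 listed were tested, and the median log2 fold change of these 16 was 0.12. Of the 16, 2 fell and 2 rose, where 9.74% of all tested genes were lower and 5.48% higher. App, the amyloid precursor and a substrate of ADAM10, had 271 and 320 counts in shControl against 77 and 196 in shLmna, with shLmna 1 the lowest (log2 fold change −0.99, SE 0.219, edgeR adjusted p = 0.0147). Aplp2, its paralog, had 708 and 1000 counts against 430 and 567 (−0.59, SE 0.137, adjusted p = 0.0188). Notch2, a receptor that ADAM10 cuts after ligand binding, had 7 and 12 counts in shControl against 19 and 28 in shLmna, and it rose with a log2 fold change of 1.47 (SE 0.405, adjusted p = 0.0371). Met, the receptor of hepatocyte growth factor, rose from 365 ± 117 to 634 ± 25.6 CPM (log2 fold change 0.80, SE 0.190, adjusted p = 0.0207), with the shControl libraries at 282 and 448 CPM. Without shControl 1 the log2 fold change of Met was 0.50, and without shControl 2 it was 1.16. App did not pass without shLmna 1 (edgeR adjusted p = 0.0922), and Aplp2 and Met did not without shLmna 1 (0.0904 and 0.124) or without shLmna 2 (0.186 and 0.122). Notch2 did not pass with DESeq2 (adjusted p = 0.364), without shControl 1 (0.0952), without shLmna 1 (0.197) or without shLmna 2 (0.237).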

How the data were processed

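The authors processed the MARS-seq reads in the UTAP pipeline: Cutadapt trimming, alignment to mm10 with STAR 2.4.2a and HTSeq counting over the last 1000 bases of RefSeq genes and 100 bases downstream. They deposited raw counts per gene symbol, which were used here. Whether unique molecular identifier duplicates were collapsed in that matrix, and whether strand was used, is not stated. Another deposited file gave, for each library, a signal equal to the count over a size factor, beside p-values of the authors' own comparison, which were not used. Of these signal values, 100% gave whole counts (tolerance 0.1), and the count test on these called 539 genes lower and 160 higher. Library by library the matrix summed to 1.08 to 1.09 times the recovered counts, with 0 of 10401 genes below them. The authors also deposited log2 values, corrected with ComBat for unnamed batches.

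For the tests, edgeR 4.0.16 (R 4.3.3) fitted quasi-likelihood models to the counts, with two-sided F tests, TMM scaling, the filterByExpr filter, group as the only term and Benjamini-Hochberg adjustment over 9150 genes. Passing the test means an adjusted p under 0.05. A call also needed a log2 fold change over 1 in size and a mean normalized count over 5, the limits of the study. Standard errors were derived from the F statistic. Members and lists were chosen with earlier results of these data known. Named genes are the members, Lmna, list genes with an adjusted p under 0.05 and the 5 genes nearest to Adam9 (prior count 2). Tyr, Mitf, Dct, Tyrp1, Cd68, Reck and the neighbours of Adam9 and Adam10 were named after their values were seen. Gene models and sequences came from the GRCm38 reference. Alternatives were other scalings, no filter, DESeq2 1.42.0, recovered counts, the ComBat values in limma 3.58.1, leaving out each library, a replicate block and a loess offset for GC (span 0.3). The fit was also run on simulated counts without a shift by GC, so that run does not bear on the base composition of Adam9 and Adam10.

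Replicates correlated at 0.974 in shControl and 0.979 in shLmna across genes, and differed by more than sampling noise (chi-square per degree of freedom 6.96 and 3.91). Nothing states that they came from separate cultures, so p-values measure only the spread between these libraries, which may be technical. With 3 counts as the floor, levels under 0.803 to 1.19 CPM could not be told from 0.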

Additional observations from a re-analysis of the deposited data

How the results depend on the processing

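In each of the 12 alternatives Adam9 was lower in shLmna, by a log2 fold change between −4.77 and −1.01. All of them used libraries in which Adam9 was already known to be low, so these values are a description and not support. The value nearest to 0 came from the ComBat log2 values. In them Adam9 lay at 8.60 in shControl 1 and 7.55 in shLmna 1, where the recovered counts were 215 and 6. The log2 fold change of Lmna in these values was −1.54. Fold changes of the ComBat values are thus not on the scale of the counts, and the cause of the difference was not tested. Adam10 was lower in all 12 and past the test in 8, and Timp2 was lower in all 12 and past the test in 10, with the losses given beside the results. In the ComBat values Adam15 (adjusted p = 0.0367, limma) and Mmp14 (0.0382) passed the test. When 1 library was left out, the log2 fold change of Mmp2 ranged from −0.20 to 0.11 and that of Timp1 from −0.14 to 0.000569, and neither passed. Leaving out a library gives a group of 1 that is assumed to vary like the other group. Over all genes, 538 were called lower and 161 higher. ComBat values, whose fold changes are on another scale, gave 28 and 2, DESeq2 gave 391 and 66, and the offset for GC gave 501 and 323. Leaving out 1 library gave 387 to 744 lower and 60 to 232 higher, and without shLmna 1 and without shLmna 2 the higher calls were 71 and 60. With a replicate block, 605 were called lower and 209 higher, the log2 fold change of Adam9 was −4.57 and the block changed no call of a member. The replicate numbers are not stated to pair libraries, and the deviations of libraries with the same number correlated at 0.0129. Depth limits Mmp15, which was not tested, and Timp3, with at most 36 counts in a library.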
